A study of Mus musculus with 32 samples.

Results

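Small nucleolar RNAs (snoRNAs) are short RNAs that pair with ribosomal and spliceosomal RNA and direct its chemical modification. Box C/D snoRNAs (Snord genes) guide 2′-O-methylation with the proteins fibrillarin, Nop56 and Nop58, and box H/ACA snoRNAs (Snora genes) guide pseudouridylation with dyskerin. A few, such as Snord118, Snord22 and Snora73, take part in cutting the ribosomal precursor. Most lie in introns of protein-coding or noncoding host genes and are trimmed out of the excised intron, so that the host's exons and the snoRNA can reach different levels.

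The members were all genes whose symbol in the platform annotation begins with Snord or Snora and a digit. Where a symbol had several probe sets, the one with the highest mean was taken, and probe sets listing several symbols were left out. This gave 73 of 22180 measured genes, 47 of box C/D and 26 of box H/ACA. No filter on low values was applied. The imprinted brain clusters Snord64, Snord107, Snord115 and Snord116 had no member here.

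Liver RNA came from 14-week-old male wild-type C57BL/6NTac mice that had fasted for 10 h and then received palm oil (2 g/kg) or water by gavage. The groups were 9 palm oil clamped, 7 water clamped, 9 palm oil basal and 7 water basal mice, with 1 Affymetrix Mouse Gene 2.1 ST array each. Clamped mice had a jugular catheter placed under ketamine and xylazine 6 to 7 days earlier. They received a glucose tracer (110 min) from 6 h after the gavage, then insulin at 15 pmol/kg/min with blood glucose held at a target, and were killed with ketamine and xylazine. No catheter is described for basal mice, which were killed with isoflurane 6 h after the gavage. In clamped minus basal differences, insulin, surgery, infusion, time after the gavage and anaesthetic cannot be told apart. Values are log2 expression values made with RMA, so that a difference of 1 is a 2-fold difference in array signal, and dim probe sets have compressed differences.

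The arrays differed in ways that bear on the members. Array numbers in the labels ran higher in basal than in clamped mice without overlap, so number and clamp cannot be told apart. The 7 basal arrays numbered 44 or higher (3 palm oil, 4 water) had a narrow spread of values, with interquartile ranges from 2.44 to 2.54. The range was 2.72 to 2.96 for the 9 remaining basal and 2.64 to 2.85 for the 16 clamped arrays. The mean of 9 pancreatic acinar markers lay over 6 in 12 arrays, of which 2 were palm oil clamped, 1 water clamped, 5 palm oil basal and 4 water basal. It ranged from 1.73 to 7.39 in palm oil clamped, 1.43 to 8.49 in water clamped, 1.73 to 9.37 in palm oil basal and 2.36 to 9.05 in water basal arrays. Of 7 neutrophil markers, 5 were higher in clamped mice in each comparison. Their mean ranged from 4.21 to 5.24 in palm oil clamped and 3.87 to 5.10 in water clamped arrays, against 2.26 to 2.79 in palm oil basal and 2.19 to 3.26 in water basal arrays. Of 5 Kupffer cell markers, 2 were higher in each (Marco and Timd4), and of 5 sinusoidal endothelial markers, Lyve1 was higher and Kdr lower in each. The 5 hepatocyte markers averaged between 10.37 and 10.93 in every array, and 1 of them, Tat, was higher in clamped mice in each comparison (0.83 ± 0.14 in palm oil and 0.67 ± 0.16 in water mice). In bulk tissue, more cells of a type and more RNA per cell cannot be told apart. The part of these cells in the snoRNA results was not tested beyond leaving arrays out.

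The members covered most of the range of the arrays. Means over all 32 arrays lay between 0.90 and 9.48, with a median of 2.12 for box C/D and 3.16 for box H/ACA, against 1.83 over all genes. Of the 73 members, 47 exceeded the median of all genes. These values describe probe sets, whose brightness also depends on their probes, and they are not amounts of RNA. The highest box C/D means were those of Snord13 (9.48), which acts in forming the small ribosomal subunit's RNA, Snord49b (8.95) and Snord104 (8.80). The highest box H/ACA means were those of Snora23 (7.15), Snora44 (6.84) and Snora20 (6.72). The lowest means were 0.90 for Snord90, 0.95 for Snord1b and 1.05 for Snord110 of box C/D, and 1.11 for Snora15, 1.15 for Snora35 and 1.16 for Snora19 of box H/ACA. Snora35 lies in Htr2c, a serotonin receptor gene of the brain. By RefSeq (GRCm38.p6) the genes are 48 to 221 bases long, with medians of 68 for box C/D and 118.5 for box H/ACA.

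No snoRNA passed the adjusted threshold between palm oil and water mice. In clamped mice 0 of 73 members passed limma's test at an adjusted p of 0.05 (background over all 22180 genes 0%), with 2 under an unadjusted p of 0.05 by limma and 2 by an exact rank sum test, which also called 0. In basal mice 0 passed as well (background 0%), again with 2 by limma and 2 by the rank sum test at an unadjusted p of 0.05. The median difference, palm oil minus water, was -0.01 for box C/D and -0.07 for box H/ACA in clamped mice, and -0.03 and -0.11 in basal mice. The member with the smallest p in clamped mice was Snora73a, an H/ACA RNA of ribosomal precursor processing. It averaged 4.07 ± 0.50 in palm oil clamped and 4.65 ± 0.29 in water clamped mice (SD, n = 9 and 7), a difference of -0.58 ± 0.19 (SE). Its limma adjusted p was 1. In basal mice Snord83b, from an intron of the ribosomal protein gene Rpl3, averaged 2.01 ± 0.44 with palm oil and 2.55 ± 0.53 with water (SD, n = 9 and 7). That difference of -0.54 ± 0.24 (SE) had a limma adjusted p of 0.960.

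These comparisons were precise enough to bound most members. The 95% interval of the palm oil difference lay within 2-fold either way for 70 of 73 members in clamped and 68 of 73 in basal mice, a bound on array signal that compression loosens for the 26 members at or below the median of all genes. The difference between the clamp effect in palm oil and in water mice (the interaction) passed for 0 of 73 members (background 0%), with 3 at an unadjusted p of 0.05, and its interval lay within 2-fold for 52. Those 3 were Snora35 at 0.46 ± 0.20, Snora74a at 0.51 ± 0.23 and Snord83b at 0.72 ± 0.34 (SE), each with a limma adjusted p of 1.00.

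In clamped liver several snoRNAs were higher, and none of the members was lower by the test. In palm oil mice 10 of 73 members were called, 6 of 47 box C/D and 4 of 26 box H/ACA, all higher (background 7.57% in either direction, 3.76% higher and 3.8% lower). In water mice 8 were called, 4 of each box, all higher (background 8.75% in either direction, 4.66% higher and 4.09% lower). These were 13.7% of the members in palm oil and 11% in water mice. Among genes brighter than the median gene, 19.1% of members were called, all higher, in palm oil mice, where 14.2% of all such genes were called and 7.25% were higher. In water mice 14.9% of such members were called, all higher, where 16.5% of all such genes were called and 9.04% were higher. Of the 26 dimmer members, 1 was called in each comparison. Dimmer genes were seldom called in general. Of all genes called higher, 804 of 835 in palm oil and 1002 of 1033 in water mice were brighter than the median gene.

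The differences of the members leaned to one side beyond the called ones. In palm oil mice 62 of 73 members (84.9%) had a clamped minus basal difference above 0, against 45.5% of all genes. In water mice 60 (82.2%) did, against 46% of all genes. The median difference was 0.19 for box C/D and 0.32 for box H/ACA in palm oil mice, and 0.21 and 0.22 in water mice, against -0.02 over all genes in each. Averaged over its 47 members, box C/D stood at 3.19 ± 0.14 in palm oil clamped and 3.22 ± 0.14 in water clamped mice, against 2.90 ± 0.13 in palm oil basal and 2.94 ± 0.13 in water basal mice (SD, n = 9, 7, 9 and 7). Box H/ACA stood at 3.80 ± 0.17 and 3.89 ± 0.18 in the palm oil and water clamped mice, against 3.43 ± 0.12 and 3.55 ± 0.11 in the palm oil and water basal mice. The members share arrays and several share a host, so these counts and means describe them and carry no test.

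**Figure D1:**
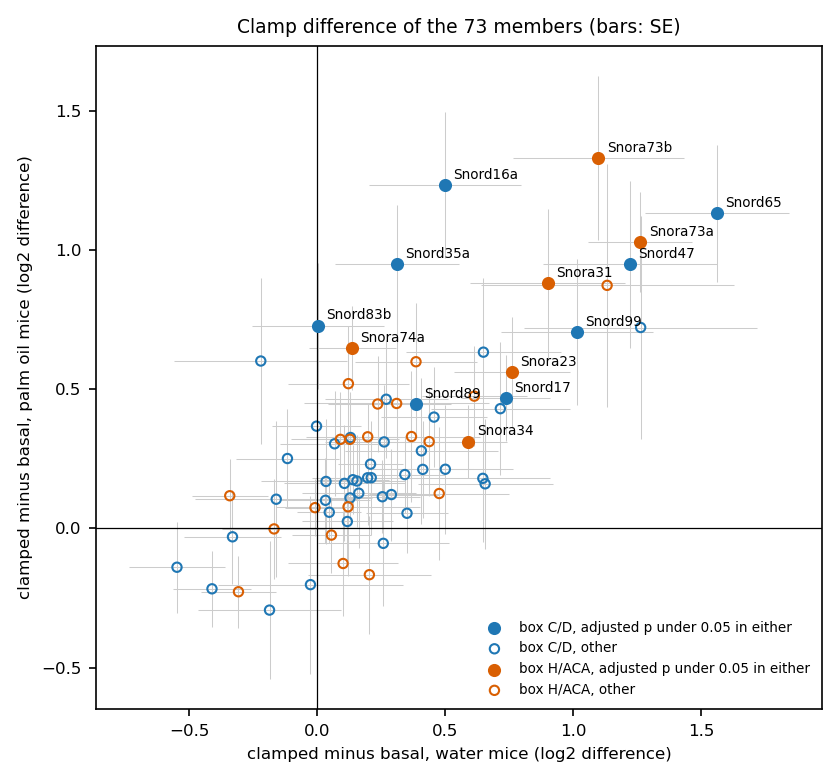
Log2 differences, clamped minus basal, of the 73 snoRNAs in water mice (horizontal) and palm oil mice (vertical), with standard errors as grey bars. Filled points passed limma's adjusted p of 0.05 in either comparison (14 members), and 56 members lie above 0 on both axes.

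Snord65 and the Snora73 pair were called in both comparisons, as was Snord47. Snord65, a box C/D RNA in an intron of the noncoding gene 2410006H16Rik, had a lowest, median and highest value of 4.02, 4.61 and 4.89 in palm oil clamped and 2.84, 3.22 and 4.72 in palm oil basal mice. In water mice it had 4.41, 4.84 and 5.76 when clamped and 2.17, 3.44 and 4.47 when basal. All but 1 basal value of each gavage lay below every clamped one. The difference was 1.13 ± 0.25 (2.19-fold, limma adjusted p = 0.00229) in palm oil and 1.56 ± 0.28 (2.95-fold, limma adjusted p = 0.000224) in water mice.

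Snora73a and Snora73b, both in the noncoding host gene Snhg3, encode near-identical forms of the U17 RNA of ribosomal precursor processing. Probes for such copies can share signal, so it is uncertain which copy rose. Snora73a had 3.22, 4.05 and 4.78 (lowest, median, highest) in palm oil clamped and 2.10, 3.10 and 3.68 in palm oil basal mice. It had 4.39, 4.61 and 5.22 in water clamped and 2.98, 3.41 and 3.66 in water basal mice. In water mice every clamped value exceeded every basal one, as held in that direction for 1.39% of all genes. In palm oil mice 8 of 9 clamped values exceeded every basal one. The difference was 1.03 ± 0.18 (2.04-fold, limma adjusted p = 0.000144) in palm oil and 1.26 ± 0.20 (2.40-fold, limma adjusted p = 5.03e-05) in water mice. Snora73b rose by 1.33 ± 0.30 (limma adjusted p = 0.00272) in palm oil and 1.10 ± 0.34 (limma adjusted p = 0.0330) in water mice, with overlapping groups in both.

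The remaining calls fell in 1 comparison each, and no member's interaction passed. In palm oil mice Snord16a, in an intron of the ribosomal protein gene Rpl4, averaged 3.97 ± 0.38 when clamped and 2.73 ± 0.66 when basal (SD, n = 9 each), 1.23 ± 0.26 higher (SE, limma adjusted p = 0.00167). In water mice it averaged 3.78 ± 0.62 when clamped and 3.28 ± 0.73 when basal, a difference of 0.50 ± 0.30 (limma adjusted p = 0.360). Snord35a, an intronic RNA of Rpl13a that work in cultured cells has tied to lipotoxic stress, averaged 4.15 ± 0.53 in palm oil clamped and 3.20 ± 0.54 in palm oil basal mice. Its difference of 0.95 ± 0.21 passed (limma adjusted p = 0.00293), while that in water mice was 0.31 ± 0.24 (limma adjusted p = 0.518). Snord35a did not pass for palm oil minus water, at 0.29 ± 0.23 in clamped and -0.35 ± 0.23 in basal mice.

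Also higher in palm oil mice were Snora31 (0.88 ± 0.27, in Tpt1), Snord83b (0.73 ± 0.23, in Rpl3), Snora74a (0.65 ± 0.15, in Snhg4) and Snord89 (0.45 ± 0.12, spanned by no gene). In water mice the others were Snord99 (1.01 ± 0.30, in Snhg12), Snora23 (0.76 ± 0.23, in the nuclear import receptor gene Ipo7), Snord17 (0.74 ± 0.17, in Snx5) and Snora34 (0.59 ± 0.15, in Kansl2). In the other comparison Snord99 and Snora23 differed by 0.71 ± 0.26 and 0.56 ± 0.20 in palm oil mice, and Snora31 and Snord89 by 0.90 ± 0.30 and 0.39 ± 0.14 in water mice, values that did not pass. Snord83b differed by 0.00 ± 0.26 in water mice. With the 7 basal arrays numbered 44 or higher left out, Snora31 (0.44 ± 0.19), Snord83b (0.53 ± 0.25) and Snord89 (0.41 ± 0.14) did not pass in palm oil mice. Nor did Snord99 (0.98 ± 0.39), Snora23 (1.01 ± 0.31), Snord17 (0.56 ± 0.21) and Snora34 (0.48 ± 0.19) in water mice.

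**Figure D2:**
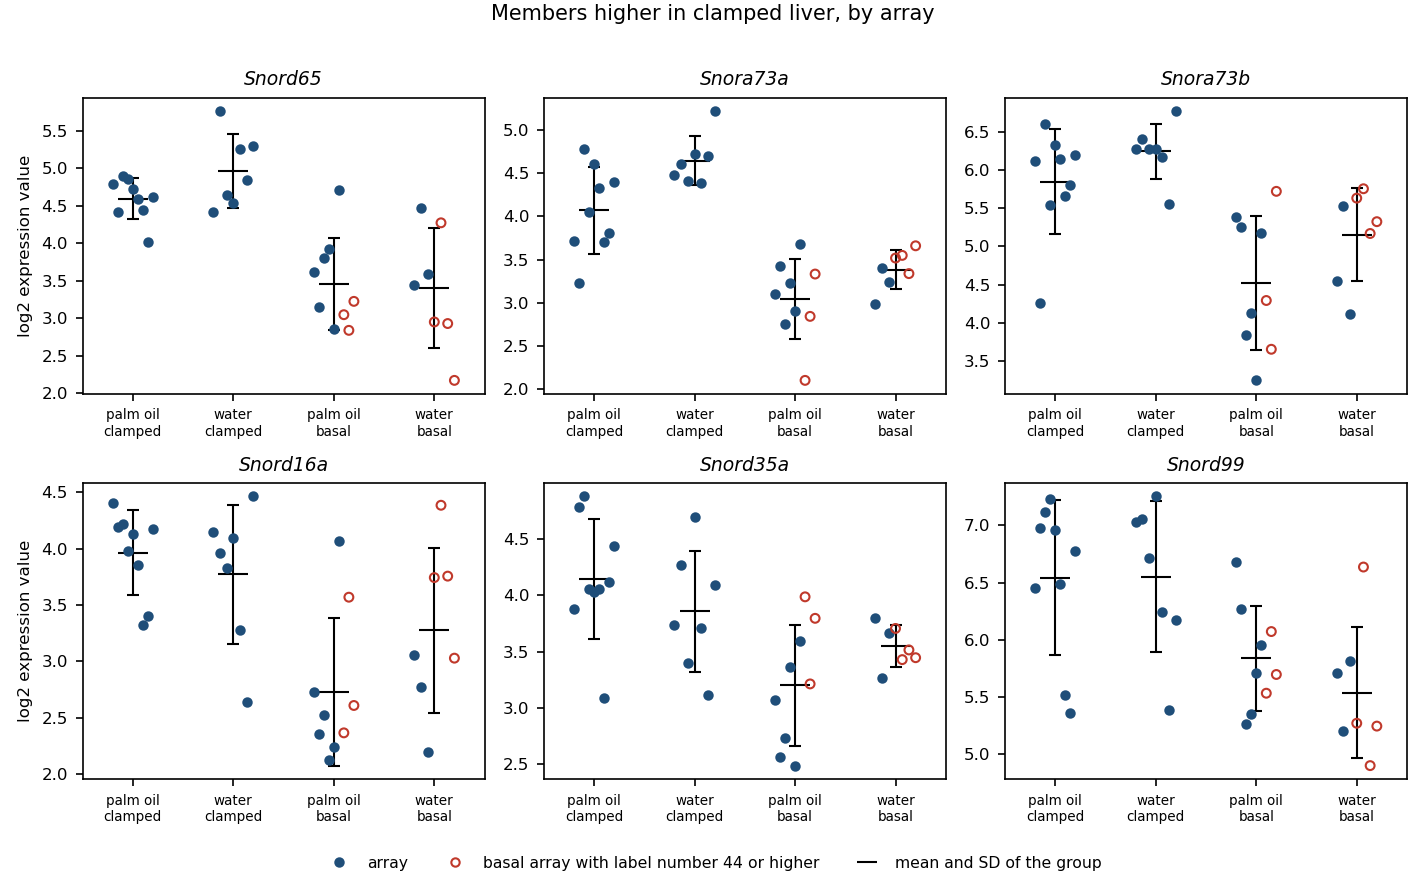
Log2 values of 6 called snoRNAs in each array, by group, with the mean and SD in black. Open red circles are the basal arrays numbered 44 or higher, and Snora73a in water mice is the panel whose clamped values (4.39 to 5.22) all lie above the basal ones (2.98 to 3.66).

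Snord118 and Snord22, also RNAs of ribosomal precursor processing, did not pass, nor did Snord13. Snord118 (U8), needed in vertebrates for the large subunit's RNA, averaged 6.97 ± 0.63 in palm oil clamped and 6.87 ± 0.68 in palm oil basal mice, and 6.84 ± 0.62 in water clamped and 7.00 ± 0.66 in water basal mice (SD, n = 9, 9, 7 and 7). Snord22 (U22), in an intron of Snhg1, differed by 0.37 ± 0.15 in palm oil and 0.00 ± 0.18 in water mice. Snord13, the brightest member, differed by -0.22 ± 0.14 in palm oil and -0.41 ± 0.15 in water mice (limma adjusted p = 0.432 and 0.0968). It passed as lower in water mice after a further quantile normalization (-0.53) and when the compared groups were fitted alone (-0.41).

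Several members were low in 1 part of the basal arrays. Snord71, a box C/D RNA whose human counterpart guides methylation of 5.8S ribosomal RNA, lies at chr8:109839312-109839375 (GRCm38.p6), within Ap1g1 and Gm17344. It had values of 2.64, 1.49 and 1.49 in the palm oil and 2.30, 2.23, 2.86 and 0.89 in the water basal arrays numbered 44 or higher. In the other 9 basal arrays it lay between 3.24 and 4.83, and in the 16 clamped arrays between 3.36 and 4.95. The low arrays therefore did not overlap with either set. How many of all genes separated in this way was not counted. Between the basal arrays numbered 44 or higher and those under 44, limma called 13.4% of all genes. Clamped minus basal, Snord71 differed by 0.72 ± 0.40 in palm oil (limma adjusted p = 0.353) and 1.26 ± 0.45 in water mice (limma adjusted p = 0.0809). The two-sided exact permutation test gave p = 0.136 for palm oil and p = 0.0204 for water mice (0.136 and 0.0408 adjusted over both). That adjustment covers only a member chosen with earlier results of these data known, while limma's covers all genes. The arrays numbered 44 or higher are all basal, so the permutation test cannot tell the clamp from the low arrays. Against the basal arrays under 44 alone, the difference was -0.06 ± 0.27 in palm oil and 0.27 ± 0.35 in water mice. Against those numbered 44 or higher it was 2.29 ± 0.34 and 2.01 ± 0.32.

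Other members differed across the split at 44 too, in a share near that of all genes. The split was set from the arrays' spread with results of these data known, so its values describe these arrays and are no independent test. Between the basal arrays numbered 44 or higher and those under 44, 12 of 73 members (16.4%) were called (background 13.4%). Of these, 3 were higher and 9 lower, which is 4.11% and 12.3% of the members (background 5.84% higher and 7.54% lower). Snord71 differed by -2.04 ± 0.27, Snord47 by -1.59 ± 0.19 and Snora31 by -1.36 ± 0.18 (SE). Snora30, Snord91a, Snord82, Snord53, Snord83b and Snora20 were lower too, with differences between -1.31 and -0.39. Snora44 (1.04 ± 0.31), Snord49b (0.77 ± 0.21) and Snora16a (0.71 ± 0.24) were higher. The median over the 73 members was -0.04, against 0.03 over all genes.

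**Figure D3:**
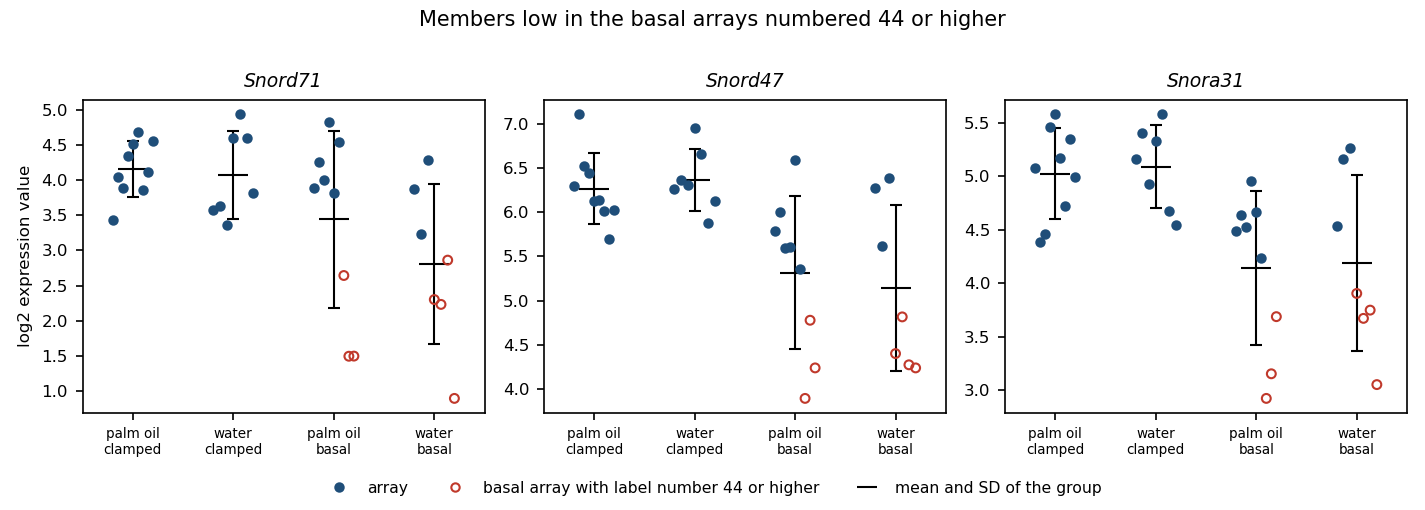
Log2 values of Snord71, Snord47 and Snora31 in each array, by group, with the mean and SD in black. The basal arrays numbered 44 or higher, drawn as open red circles, lie below the other basal and the clamped arrays, for Snord71 at 0.89 to 2.86 against 3.24 or more. The share of all genes that separate in this way was not counted.

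The clamp calls differed with the basal arrays they were set against, as did the calls over all genes. The parts of each basal group were fitted as groups of their own. Against the basal arrays under 44, 7 members (9.59%) were called in palm oil mice, all higher (background 5.82%, with 2.35% higher and 3.47% lower). In water mice 4 (5.48%) were, all higher (background 4.75%, with 1.77% higher and 2.98% lower). Against those numbered 44 or higher, 11 (15.1%) were called in palm oil mice, all higher (background 11.7%, with 6.47% higher and 5.2% lower). In water mice 13 (17.8%) were, 12 higher and 1 lower (background 13%, with 7.25% higher and 5.78% lower). Snord65 passed in all 4 of these comparisons, at 0.92 ± 0.26 and 1.56 ± 0.32 in palm oil and 1.13 ± 0.34 and 1.89 ± 0.31 in water mice (lower and higher numbers in turn). Snora73a passed in all 4 as well, at 0.89 ± 0.19 and 1.31 ± 0.25 in palm oil and 1.44 ± 0.26 and 1.13 ± 0.23 in water mice. Snord16a passed in palm oil mice against both parts (1.29 ± 0.27 and 1.12 ± 0.34). In water mice Snord16a passed against neither, at 1.10 ± 0.36 against the lower-numbered arrays (limma adjusted p = 0.0730) and 0.05 ± 0.32 against the others. Snord35a passed in palm oil mice against the lower-numbered arrays (1.18 ± 0.23) but not the others (0.48 ± 0.29). Snord47 did not pass against the lower-numbered arrays, at 0.44 ± 0.19 in palm oil and 0.27 ± 0.25 in water mice. The lean above 0 was present in each, with 61 and 55 of 73 members in palm oil and 56 and 55 in water mice. Without the 12 arrays rich in acinar markers, 3 box C/D and 1 box H/ACA members passed in palm oil mice, all higher (background 3.32%, with 1.31% higher and 2.01% lower). In water mice 2 and 1 passed, all higher (background 4.48%, with 2.44% higher and 2.04% lower).

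Most members could be set beside the gene they lie in. In RefSeq (GRCm38.p6), 64 of 73 members are spanned by 1 gene, 49 of them in protein-coding and 15 in long noncoding genes, and 18 in genes of ribosomal proteins. Several genes span 6 members, Snord71 among them, and none spans Snord13, Snord118 and Snord89. Strand was not used for the members. A spanning gene was measured for 55 members, giving 41 host genes. Host values come from exonic and other probes of the host's own probe sets, and how much of a snoRNA's value comes from unspliced host RNA was not tested.

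Called snoRNAs mostly differed where their hosts did not pass against all basal arrays of the same gavage. In palm oil mice 7 called members had a measured host, and 0 of these hosts were called. In water mice 7 had one, and for 3 of them the host was called higher too. Those were Snora73a and Snora73b with Snhg3, and Snora23 with Ipo7. Snhg3 averaged 5.28 ± 0.29 in water clamped and 4.75 ± 0.37 in water basal mice (SD, n = 7 each), 0.53 ± 0.17 higher (SE, limma adjusted p = 0.0460), and differed by 0.46 ± 0.15 in palm oil mice (limma adjusted p = 0.0564). The host of Snord65, 2410006H16Rik, averaged 7.88 ± 0.26 in palm oil clamped and 7.64 ± 0.21 in palm oil basal mice, a difference of 0.24 ± 0.16 (limma adjusted p = 0.463). In water mice it differed by 0.28 ± 0.18 (limma adjusted p = 0.421). Snhg12, the host of Snord99, differed by 0.18 ± 0.11 and 0.06 ± 0.13 in palm oil and water mice. That a host missed the threshold does not show that it stayed level.

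Other hosts were higher while their snoRNAs did not pass. Nop58, itself a core protein of box C/D particles and the host of Snord11 and Snord70, averaged 5.97 ± 0.33 in palm oil clamped and 5.08 ± 0.51 in palm oil basal mice (SD, n = 9 each). It was 0.89 ± 0.20 higher in palm oil (limma adjusted p = 0.00306) and 1.05 ± 0.23 higher in water mice (limma adjusted p = 0.00210). Snord11 differed by 0.63 ± 0.27 and 0.65 ± 0.30, and Snord70 by -0.20 ± 0.32 and -0.03 ± 0.36, in palm oil and water mice. Gnl3, which encodes the nucleolar protein nucleostemin and spans Snord19 and Snord69, was also higher in both. Gnl3 differed by 0.50 ± 0.10 in palm oil and 0.55 ± 0.12 in water mice. Snord19 differed by 0.21 ± 0.17 and 0.41 ± 0.20, and Snord69 by -0.05 ± 0.23 and 0.26 ± 0.26, in palm oil and water mice. Snord70, Snord19 and Snord69, with means of 1.68, 1.47 and 1.55, lie under the median of all genes, where differences are compressed. Whether compression accounts for their missed calls was not tested. Of the 41 hosts, 3 (7.32%) were called in palm oil and 8 (19.5%) in water mice, all higher, beside 3.76% and 4.66% of all genes called higher. Every host but Htr2c was brighter than the median gene. Of all such genes, 7.25% were called higher in palm oil and 9.04% in water mice, so the share of hosts in palm oil mice was near that background. Across the 55 pairs, the differences of member and host had a Pearson r of 0.217 (Spearman rho 0.226) in palm oil mice. In water mice r was 0.151 (rho 0.115). Within groups, the correlation of member and host ranged from -0.46 to 0.777 (median 0.0165) and was highest for Snora31 and Tpt1. These values describe pairs that share arrays and hosts.

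**Figure D4:**
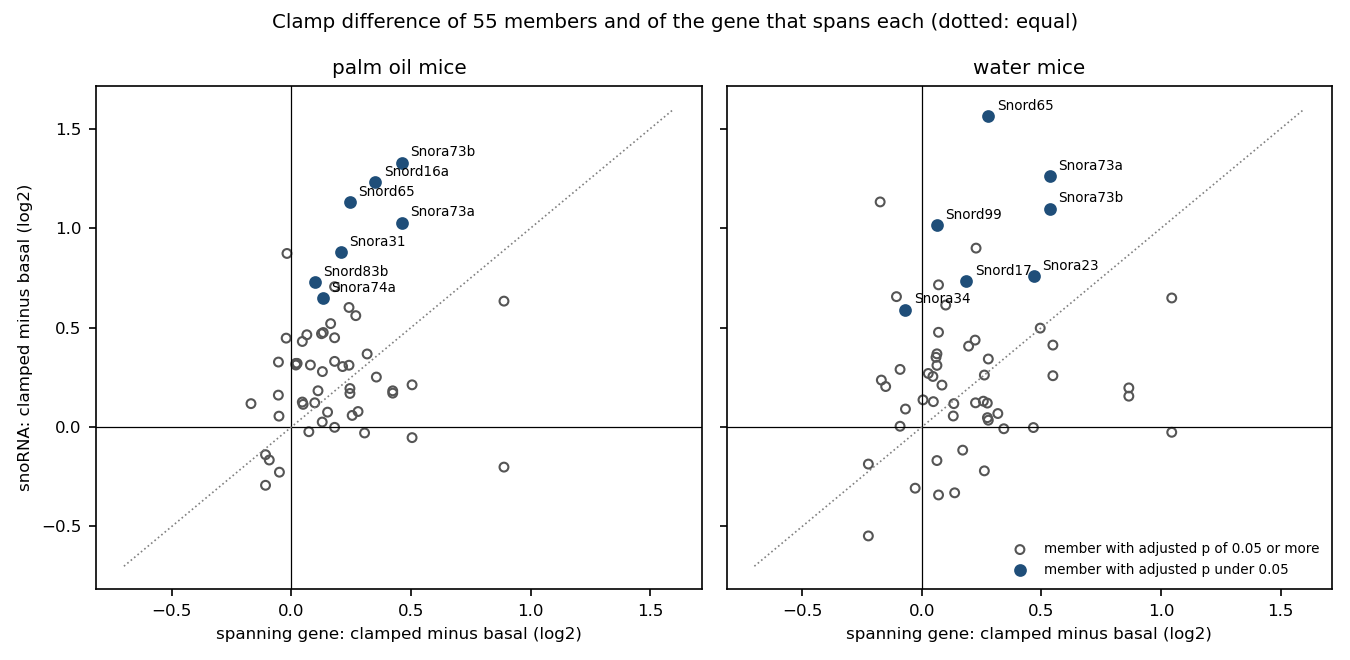
Log2 differences, clamped minus basal, of 55 snoRNAs (vertical) against the gene that spans each (horizontal), in palm oil mice on the left and water mice on the right. Filled points are the 7 called members of each panel, which lie above the dotted line of equal differences.

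SnoRNAs of the same host could be compared within each array, a comparison chosen after the values had been seen. There were 18 such pairs, from 25 members of 11 hosts, each tested in both clamp comparisons with a two-sided exact permutation test adjusted over the 36 tests. The difference of the pair changed in 3 tests after adjustment and in 5 before. Snord65 differed from both of its neighbours in 2410006H16Rik in palm oil mice. There it was higher by 1.13 and Snord49a differed by 0.19, leaving 0.94 (exact permutation adjusted p = 0.0420). Snord49b differed by 0.17, leaving -0.96 for Snord49b minus Snord65 (exact permutation adjusted p = 0.0474). These probe sets differ in brightness, with means of 1.58 for Snord49a, 4.1 for Snord65 and 8.95 for Snord49b. Snord49a lies under the median of all genes, where differences are compressed. Whether the probes account for the differences within the pairs was not tested. In Snhg12, Snord99 differed by 1.01 and Snora61 by -0.17 in water mice, leaving 1.18 (exact permutation adjusted p = 0.0420). The same pairs did not pass in the other comparison. In water mice Snord65 minus Snord49a was 1.22 (exact permutation adjusted p = 0.0577) and Snord49b minus Snord65 was -1.53 (exact permutation adjusted p = 0.0839), and in palm oil mice Snord99 minus Snora61 was 0.71 (exact permutation adjusted p = 0.307). Without the 7 basal arrays numbered 44 or higher 0 pairs passed, and without the 12 arrays rich in acinar markers 0 did.

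Start regions of 4 hosts are shown because these genes carry the called members with the largest differences that have a measured host. They were chosen after the values had been seen. Each runs from 50 bases before to 30 from the annotated start onward, on the gene's strand, from RefSeq (GRCm38.p6). Capitals mark an unbroken run of at least 6 C or T that comes within 5 bases of the start, a feature of host genes with a terminal oligopyrimidine start.
2410006H16Rik (host of Snord65), chr11:62602827-62602906, plus strand: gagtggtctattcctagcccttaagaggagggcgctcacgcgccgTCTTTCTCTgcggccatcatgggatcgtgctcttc
Snhg3 (host of Snora73a and Snora73b), chr4:132353657-132353736, minus strand: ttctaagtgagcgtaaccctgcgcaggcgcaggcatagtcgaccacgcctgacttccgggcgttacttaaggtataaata
Rpl4 (host of Snord16a), chr9:64173337-64173416, plus strand: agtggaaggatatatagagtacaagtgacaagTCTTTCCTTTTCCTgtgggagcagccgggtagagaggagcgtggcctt
Snhg12 (host of Snord99), chr4:132308628-132308707, plus strand: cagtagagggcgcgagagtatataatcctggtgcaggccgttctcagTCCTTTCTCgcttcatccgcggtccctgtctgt

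The run was 9 letters long in 2410006H16Rik, 14 in Rpl4 and 9 in Snhg12, and Snhg3 had none. Of 50 distinct spanning genes, 40 had a promoter entry, and 14 of these (35%) held such a run on the gene's strand, against 24% of the 27025 genes with an entry. The E-box CACGTG, which reads the same on both strands, occurred in 9 hosts between 250 bases before and 50 after the start (22.5%), against 8.09% of all genes. TATAAA on either strand occurred in 10 hosts (25%), against 15.7% of all genes. These matches describe letters in a window.

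The proteins that build and trim snoRNA particles were given from lists, counted in both directions. Beside these counts, 7.57% of all genes were called in palm oil and 8.75% in water mice. Among genes brighter than the median gene, 14.2% and 16.5% were. In box C/D particles 1 of 3 measured proteins, Nop58, was higher in each comparison, while Nop56 differed by 0.13 ± 0.11 in palm oil and 0.13 ± 0.12 in water mice. Of 4 box H/ACA proteins, Dkc1, the pseudouridine synthase dyskerin, was lower in water mice (-0.48 ± 0.13, limma adjusted p = 0.0167) and 0 passed in palm oil mice, where Dkc1 differed by -0.28 ± 0.12. Of 18 measured assembly and transport genes, Znhit6, a box C/D assembly factor, was lower in both, at -0.50 ± 0.11 in palm oil and -0.49 ± 0.12 in water mice. No other gene of that list passed in either.

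Of 16 genes of end trimming and debranching, 1 was higher in palm oil mice, and 2 were higher and 1 lower in water mice. Tut1, a terminal uridylyltransferase of U6 RNA, was higher in both (0.52 ± 0.13 in palm oil and 0.61 ± 0.15 in water mice). The exosome subunits Exosc3 (0.48 ± 0.12) and Exosc7 (-0.56 ± 0.17) passed in water mice, in opposite directions. Of 17 noncoding host genes, 2 were higher and 1 lower in palm oil mice (Snhg5, Snhg6 and Snhg20), and 3 were higher in water mice (Snhg1, Snhg3 and Snhg6). Spliced noncoding hosts of this kind are often degraded by nonsense-mediated decay, of whose 7 measured genes 1 was higher in palm oil and 2 in water mice. The kinase gene Smg1 was higher in both, by 0.52 ± 0.13 in palm oil and 0.48 ± 0.15 in water mice. The median differences of these 6 lists lay between -0.19 and 0.28, beside -0.02 over all genes. The lists are short, and whether their counts of calls differ from the shares over all genes was not tested.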

How the data were processed

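Liver RNA was extracted with miRNeasy columns, amplified as whole transcripts and labelled with biotin, per the labels' protocols. Per the submitters' processing notes, the authors ran RMA (Affymetrix Expression Console, version 1.3.0.187), and its log2 values were used as deposited. Of 41345 probe sets, 23521 had 1 symbol and 1814 several, and 16010 were not listed, which left 22180 genes. All 73 members matched RefSeq (GRCm38.p6) by gene ID.

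Groups came from the sample titles. The test was limma 3.58.1 (R 4.3.3; lmFit and eBayes) with 4 group means over 32 arrays (28 residual degrees of freedom), adjusted by Benjamini-Hochberg over all genes, with a threshold of 0.05 and intervals at 95%. The number of arrays limits the precision. Exact permutation tests used scipy 1.17.1. The functions were tested on simulated data. Named members were Snord71, those past the threshold (up to 10 per box and direction), otherwise the 3 of smallest p per box, the 3 brightest and 3 dimmest per box, those of precursor processing, and hosts, with some left out for length. The members and lists were chosen with earlier results of these data known. Alternatives were a brightness filter, probe set means, further normalizations, other priors and weights, replicate number, label number and interquartile range as terms, fewer groups, a threshold of 0.1, a rank sum test and arrays left out.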

Additional observations from a re-analysis of the deposited data

Results flagged for a closer look

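In 11 of 136 groups of values (8.09%) of 34 named members, 1 array lay far from the rest of its group by Dixon's criterion, which chance gives in about 1 in 20 groups. Among called members these were Snora73a in water clamped replicate 7 (5.22, next 4.72) and Snora73b in palm oil clamped replicate 2 (4.26, next 5.54). The other values belong to dim members. They were Snora15 in water clamped replicate 1 (1.98), Snora19 in palm oil clamped replicate 2 (1.58), Snord110 in water clamped replicate 2 (2.23) and palm oil basal replicate 7 (1.69), and Snord19 in palm oil clamped replicate 5 (2.36). Snord85 stood out in water clamped replicate 6 (2.17) and palm oil basal replicate 1 (2.31), and Snord88c in water clamped replicate 6 (2.13) and water basal replicate 1 (2.58).

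The 43 probe sets that list a snoRNA symbol together with other symbols were left out of the report. Fitted over all 41345 probe sets, 2 of them were higher in clamped palm oil mice (4.19% of all probe sets called) and 2 in clamped water mice (5.33%), and 0 were lower.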

How the results depend on the processing

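Snord65 and Snora73a in both clamp comparisons, and Snord16a in palm oil mice, kept their calls under all 48 alternatives run for each, between 0.92 and 1.56 (Snord65) and 0.89 and 1.31 (Snora73a) in palm oil and 1.13 and 1.89, and 1.13 and 1.44, in water mice. The cause of the changes that follow was not tested. With the 7 basal arrays numbered 44 or higher left out of the fit, water mice had 1 box C/D and 2 box H/ACA calls (1 and 3 with those arrays kept as groups of their own, where Snora23 had a limma adjusted p of 0.0400 in place of 0.0633), and without the 9 under 44 they had 8 box C/D calls. Without the 12 arrays over 6 in acinar markers, fewer arrays left 3 box C/D and 1 box H/ACA calls in palm oil and 2 and 1 in water mice. A threshold of 0.1 gave 7 box H/ACA calls in palm oil and 8 box C/D calls in water mice. The rank sum test gave 2 box C/D calls in water mice. It called 5.05% of all genes in water and 6.7% in palm oil mice. The share over all genes was not counted for the threshold of 0.1 or the replicate block. Nor was it counted for fits without single arrays or without the basal arrays on 1 side of 44. Same-host pairs that differed fell to 0 without the arrays numbered 44 or higher and to 0 without the acinar-rich ones. Leaving out 1 array gave 4 to 8 box C/D and 3 to 6 box H/ACA calls in palm oil, 2 to 7 and 2 to 5 in water mice, 0 to 5 pairs, and 0 calls for palm oil and the interaction. Snord47 in palm oil mice lost its call in 15 of these, Snord83b in 10, Snora31 in 8, Snora23 in 9 and Snora73b and Snord99 in 5 each in water mice, where Snord47 lost it without water basal replicate 6 or 7. No called value changed sign. With the replicate number as a block there were 6 and 5 calls in palm oil and 4 and 4 in water mice (box C/D and H/ACA), and 0 in the other comparisons, but Snord83b in palm oil mice (0.73, limma adjusted p = 0.0551) and Snora73b in water mice (1.10, limma adjusted p = 0.0519) lost their calls. Same-numbered arrays did not pair steadily, with correlations of -0.23 to 0.29 between their deviations. Between palm oil and water mice, 5 of 7 pairs exceeded 0.1 in basal and 1 of 7 in clamped mice. Between clamped and basal mice, 0 of 7 did in water and 3 of 9 in palm oil mice. The rank sum test was not run on the interaction.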
